A study of Mus musculus with 6 samples.

Results

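The tendon and ligament genes described here are Scx, Tnmd, Mkx and Kera. They are the rows of the deposited gene table whose symbol equals one of these names, and all 4 were found among 49492 rows. All 4 passed the filter on low counts, which left 19284 genes. The study measured poly(A) RNA in palatal shelves, the outgrowths that fuse into the roof of the mouth, taken from C57BL mouse embryos at E14.5. The control group held 3 libraries of genotype PRMT1 fl/fl, with loxP sites in each copy of Prmt1 and no Cre named. The deletion group held 3 libraries of genotype Wnt1-Cre; PRMT1 fl/fl, which carry the same alleles together with a recombinase driven in the neural crest. No group carried Cre without the deletion, so an effect of Cre and an effect of losing Prmt1 cannot be told apart. Wnt1-Cre acts in the crest-derived mesenchyme, including the progenitors of tendon in the head, while skeletal muscle cells and epithelium have other origins.

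Tendons and ligaments are dense collagen tissues that join muscle to bone and bone to bone. In the head their cells arise from neural crest, and in the soft palate they anchor the palatal muscles. Scx encodes scleraxis, a basic helix-loop-helix transcription factor that marks tendon progenitors and drives tendon matrix genes. Mkx encodes Mohawk, a homeobox factor related to the Iroquois family that is needed for collagen production in tendon. Tnmd encodes tenomodulin, a membrane glycoprotein of mature tendon cells and a known target of scleraxis. Kera encodes keratocan, a small leucine-rich proteoglycan that spaces collagen fibrils, best known from the cornea and also made in tendon.

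By GENCODE M21 (GRCm38, the same assembly as mm10), Scx spans chromosome 15, 76457452 to 76459458, on the plus strand, and its coding transcript has 2 exons. It lies inside an intron of Bop1, a ribosome assembly gene on the opposite strand, and shares 0 exonic bases with it. Tnmd spans chromosome X, 133850980 to 133865577, on the plus strand, with 7 exons. Kera spans chromosome 10, 97606879 to 97613692, on the plus strand, with 3 exons. Because scleraxis binds E-boxes, the DNA just upstream of its target Tnmd is shown. The 222 bases (RefSeq, GRCm38.p6, chrX:133850758-133850979, plus strand) end at the base before the GENCODE start. They lie 250 to 29 bases before the RefSeq start.
Tnmd upstream: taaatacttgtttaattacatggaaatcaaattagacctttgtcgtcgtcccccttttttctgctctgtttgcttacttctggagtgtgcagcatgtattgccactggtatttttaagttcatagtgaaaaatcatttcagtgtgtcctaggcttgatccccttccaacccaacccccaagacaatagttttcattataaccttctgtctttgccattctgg
No letter is in capitals because no motif searched for was found on either strand of this window. The E-box CANNTG was found in 62.4% of 32851 promoter windows of the same length, and the Iroquois and Mohawk type site ACANNTGT, which contains an E-box, in 5.81%. Those windows also run from 250 to 29 bases before each RefSeq start, so the bases nearest that start are left out. The Egr sites GCGTGGGCG and GCGGGGGCG were in 0.454% and 2.06%, and the Smad site GTCTAGAC in 0.161%. The absence says only that these letters are not in this window.

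Libraries held 44919889 to 50022829 estimated counts. They are named by the number in their column name, which no label gives: 212, 213 and 220 for control, and 208, 211 and 221 for deletion. Separate embryos are not stated as the source of the libraries, and p-values measure only the spread between libraries. Prmt1, the deleted gene, was at 246.3 to 257.9 CPM (counts scaled to library size, TMM-scaled) in controls and 200.9 to 217.3 CPM in deletion libraries. Controls 212 and 213 had the Y-linked genes of males, and control 220 and all deletion libraries had the Xist level of females. Group and sex are therefore partly confounded, and the members and gene lists are also given with sex as a covariate, a setting that compares the deletion libraries with the female control. Controls 212 and 213 also differed in the ratio of the embryonic globin gene Hbb-y to the adult Hbb-bs and Hbb-bt. It was 0.0946 and 0.0779 in them, 0.200 in control 220, and 0.191, 0.196 and 0.320 in deletion 208, 211 and 221. The sex covariate cannot separate sex from this difference, and its cause was not tested. Palate mesenchyme factors were present in every library, with the 11 genes of that list summing to 2319 to 2495 CPM in controls and 2520 to 2597 CPM in the deletion group.

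The 4 genes did not move together. Scx rose in the deletion libraries, Kera fell, and Mkx and Tnmd did not pass the test. Thus 1 of 4 rose and 1 of 4 fell at an adjusted p under 0.05 by edgeR's quasi-likelihood test, where 7.01% of all tested genes passed, 3.65% higher and 3.37% lower.

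Scx, the factor of tendon progenitors, measured 11.05 CPM in control 212, 8.77 CPM in control 213 and 8.87 CPM in control 220. It measured 19.3 CPM in deletion 208, 17.7 CPM in deletion 211 and 14.98 CPM in deletion 221. Every deletion library lay above every control, as it did for 14.1% of all tested genes. Control libraries averaged 9.56 ± 1.29 CPM and deletion libraries 17.3 ± 2.21 CPM (SD, n = 3 per group), a 1.81-fold rise with a log2 fold change of 0.86 ± 0.13 (SE; 95% interval 0.58 to 1.14, edgeR adjusted p = 0.00339). Of all tested genes, 96.6% had a lower log2 fold change. Against the female control 220 alone all 3 deletion libraries were higher, and the log2 fold change with sex as a covariate was 0.97, with an edgeR adjusted p of 0.0588. These are bulk libraries, in which more cells of a type and more RNA per cell cannot be told apart.

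The counts carry no strand information that is known here, so reads from Bop1 transcripts that retain the intron around Scx could be counted for Scx. Bop1 itself measured 51.8 ± 4.07 CPM in controls and 50.6 ± 1.81 CPM in the deletion group (log2 fold change -0.03, edgeR adjusted p = 0.839). The genes on either side, Mroh1 and the heat shock factor gene Hsf1, had log2 fold changes of 0.09 and 0.01 (edgeR adjusted p = 0.594 and 0.94). The Scx row rose, and none of these 3 neighbours passed. Bop1 shares 0 exonic bases with Scx, so a count over its exons does not measure reads from the retained intron. Whether such reads differed between the groups was not tested.

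**Figure D1:**
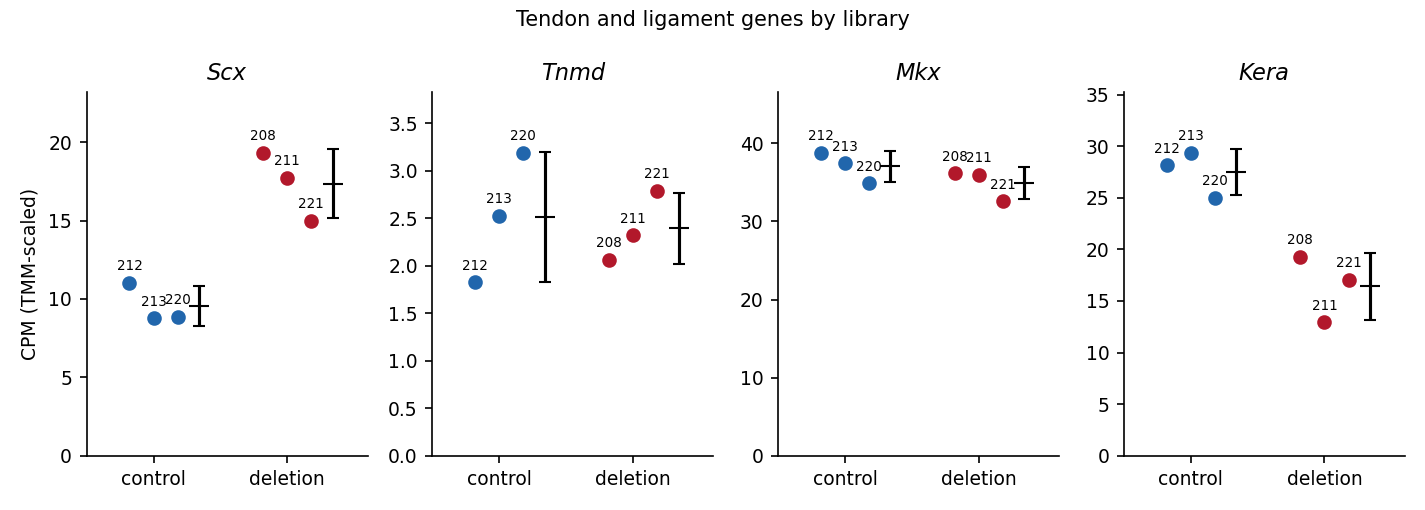
Level of each of the 4 genes in CPM (TMM-scaled, axis from 0) in control (blue) and Prmt1 deletion (red) libraries, labelled by library number. Bars are mean and SD of 3 libraries. Scx groups do not overlap (at most 11.05 CPM in controls, at least 14.98 CPM in deletion libraries), nor do Kera groups, while Tnmd and Mkx groups do.

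Mkx, the other tendon transcription factor of the set, is on the minus strand of chromosome 18 and has 7 exons in its longest coding transcript. Its level stayed within a narrow range. It measured 38.8, 37.5 and 34.9 CPM in controls 212, 213 and 220, and 36.2, 36.0 and 32.6 CPM in deletion 208, 211 and 221. The groups overlapped, and libraries varied by only 5.41% (coefficient of variation) in controls and 5.79% in the deletion group. The log2 fold change was -0.09 ± 0.07 (SE), with an edgeR adjusted p of 0.542, and the 95% interval of -0.24 to 0.07 lies wholly below that of Scx. Within each library, the ratio of Scx to Mkx was 0.284, 0.234 and 0.254 in controls and 0.535, 0.492 and 0.460 in deletion libraries. The ratio groups did not overlap (exact two-sided permutation p = 0.1, the smallest that 3 against 3 allows, and 0.15 adjusted over the 6 ratios computed). Of the coding genes beside Mkx, Rab18, a small GTPase, had a log2 fold change of 0.01, while Armc4, a protein of motile cilia, fell from 1.17 ± 0.289 to 0.216 ± 0.126 CPM (edgeR adjusted p = 0.0098), a call lost with sex as a covariate (0.163). The annotated gene AC148004.2 overlaps part of Mkx on the same strand and is not among the counted genes. Whether its reads were counted for Mkx was not tested.

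Tnmd, the marker of differentiated tendon cells, was the least abundant member. Its estimated counts were 92, 125 and 145 in controls and 103, 106 and 125 in deletion libraries. These correspond to 1.83, 2.53 and 3.19 CPM in controls 212, 213 and 220, and to 2.06, 2.32 and 2.79 CPM in deletion 208, 211 and 221. The deletion libraries lay inside the range of the controls, with a log2 fold change of -0.07 ± 0.24 (SE) and an edgeR adjusted p of 0.903. The 95% interval ran from -0.60 to 0.45. A rise of the size seen for Scx lies outside it, and changes within it, in either direction, cannot be told from none. Tnmd is X-linked, and the female control 220 had the highest value, above all 3 deletion libraries. With sex as a covariate its log2 fold change was -0.42 (edgeR adjusted p = 0.585). The nearest gene after it, Tspan6, a tetraspanin, fell by 0.22 on the log2 scale (edgeR adjusted p = 0.0494), a call lost with sex as a covariate (0.147). The ratio of Scx to its known target Tnmd was 6.04, 3.47 and 2.78 in controls 212, 213 and 220, and 9.38, 7.63 and 5.37 in deletion 208, 211 and 221. Control 212 lay above deletion 221 in this ratio, so the groups overlapped (exact two-sided permutation p = 0.2, and 0.24 adjusted over the 6 ratios).

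Kera, the matrix member of the set, was lower in all 3 deletion libraries. Its level was 28.1, 29.4 and 25.02 CPM in controls 212, 213 and 220, and 19.3, 12.9 and 17.0 CPM in deletion 208, 211 and 221. The lowest control thus lay above the highest deletion library, as for 13.5% of all tested genes. Control libraries averaged 27.5 ± 2.25 CPM and deletion libraries 16.4 ± 3.23 CPM (SD, n = 3 per group), a 1.67-fold fall with a log2 fold change of -0.74 ± 0.13 (SE; 95% interval -1.04 to -0.44, edgeR adjusted p = 0.0114). Only 4.08% of tested genes had a lower log2 fold change. Kera was not past the threshold without control 213 (log2 fold change -0.69, edgeR adjusted p = 0.0662). With sex as a covariate the value was -0.61 (edgeR adjusted p = 0.191), and all 3 deletion libraries were below control 220.

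Kera stands in a row of proteoglycan genes on chromosome 10, with Lum on the side before it at 34176 bases and Epyc after it at 30376 bases, all on the plus strand. Lum encodes lumican, a regulator of collagen fibril width, and was far more abundant than Kera. It measured 364.7, 316.9 and 309.9 CPM in controls and 309.5, 298.8 and 309.6 CPM in the deletion group. Its log2 fold change of -0.11 did not pass (edgeR adjusted p = 0.361), and control 220 lay within 1 CPM of the highest deletion library. Epyc encodes epiphycan, a proteoglycan of growth cartilage, and rose from 0.282 ± 0.0379 to 2.79 ± 0.635 CPM (9.82-fold, edgeR adjusted p = 0.000304). Dcn, the decorin gene on the far side of Lum, measured 97.7 to 104.8 CPM in controls and 74.9, 79.3 and 106.0 CPM in the deletion group, so the groups overlapped (edgeR adjusted p = 0.361). The ratio of Kera to Lum was 0.0771, 0.0927 and 0.0807 in controls and 0.0624, 0.0433 and 0.0550 in deletion libraries, again without overlap (exact two-sided permutation p = 0.1, the smallest possible, and 0.15 adjusted over the 6 ratios). Adjacent genes of this row therefore had values of opposite sign in the same libraries.

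**Figure D2:**
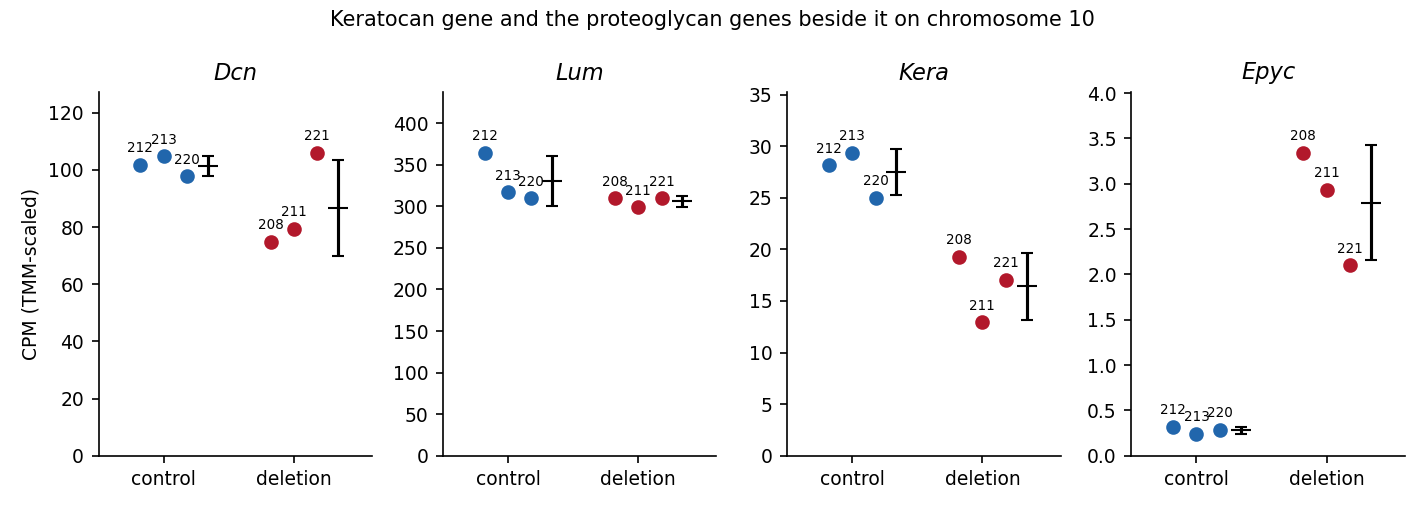
CPM (TMM-scaled, axes from 0) of Kera and of the proteoglycan genes around it, in their order along the chromosome, in control (blue) and deletion (red) libraries. Bars are mean and SD of 3 libraries. Kera is lower and Epyc higher in every deletion library, and Dcn groups overlap.

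Levels of different genes were compared per kilobase of annotated exon. In controls Kera was highest at 12.1 ± 0.986 CPM per kb, then Mkx at 9.05 ± 0.490, Scx at 4.76 ± 0.641 and Tnmd at 1.86 ± 0.504 CPM per kb (SD, n = 3), each apart from the next by more than the larger SD of the pair. In deletion libraries Scx at 8.64 ± 1.10, Mkx at 8.53 ± 0.493 and Kera at 7.20 ± 1.42 CPM per kb each differed from the next by less than the larger SD of the pair, with Tnmd at 1.77 ± 0.273 CPM per kb lowest. The place of Scx depends on its length. One of its 2 annotated transcripts is a single exon over the whole 2007-base gene, and its coding transcript has 1035 bases. With coding transcript lengths Scx was at 9.24 ± 1.24 CPM per kb in controls and Mkx, over 3650 bases, at 10.2 ± 0.550. These differed by less than the larger SD of the pair. In deletion libraries Scx was at 16.8 ± 2.13 CPM per kb, above the other members.

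The genes most like each member were taken as those with the highest Pearson correlation of log2 CPM over the 6 libraries, among 12724 other named genes at a mean log2 CPM of 1 or more. With 6 libraries many genes reach a high value, so these are descriptions. The difference between groups entered the correlation. Whether a chosen gene differed between groups therefore partly follows from the choice and is no separate result. For Scx they were Pde8b, Strn4, Rflna, Acadsb and B3gat2 (r = 0.996, 0.996, 0.996, 0.995 and 0.994). Of these Rflna, which encodes the filamin-binding protein refilin A, rose by 0.89 on the log2 scale (edgeR adjusted p = 0.00577). B3gat2, a glucuronyltransferase, rose by 0.81, and Pde8b, a cyclic AMP phosphodiesterase, by 0.57. Strn4 and Acadsb did not pass (edgeR adjusted p = 0.181 and 0.399). For Kera they included Pus7l, Clk3, Rars2 and Apod (r = 0.996 to 0.992), of which the kinase gene Clk3 fell by 0.25 on the log2 scale. Pus7l, Rars2 and Apod did not pass (edgeR adjusted p = 0.408, 0.18 and 0.0546). For Tnmd they were Scd2, Asxl1, Specc1, Rerg and Nptx1 (r = 0.994 to 0.984), and for Mkx they included Inpp1, Klhl20 and Baiap2l1 (r = 0.980 to 0.977), and none of those named for Tnmd or Mkx passed the test. No member was among the genes most like another member. Scx and Kera had r = -0.83 over the 6 libraries and 0.14 after each group's mean was taken off.

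Of 12 other tendon regulators tested, 2 rose and 0 fell (16.7% called, where 7.01% of all tested genes were), with a median log2 fold change of 0.17, against 0.00 over all tested genes. Six2, a homeobox factor expressed in connective tissue and tendon, measured 201 to 224 CPM in controls and 239 to 281 CPM in the deletion group (1.21-fold higher, edgeR adjusted p = 0.032). It did not pass with sex as a covariate, where 0 of the 12 did by edgeR (3 at an unadjusted p under 0.05).

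Among 19 tested genes of the signals that act on tendon progenitors, 3 rose and 1 fell (21.1% called, against 7.01% of all tested genes). Their median log2 fold change was 0.07. Gdf5 and Gdf7 encode growth and differentiation factors of joints and tendon and were at low levels. Gdf5 measured 1.35, 1.13 and 1.43 CPM in controls and 2.76, 2.94 and 4.13 CPM in the deletion group (2.51-fold, edgeR adjusted p = 0.00698), and Gdf7 rose 2.04-fold (edgeR adjusted p = 0.0347). Spry1, a feedback inhibitor and readout of FGF signalling, rose 1.25-fold (edgeR adjusted p = 0.0305). Other FGF readouts of the list did not pass. Their log2 fold changes were 0.26 for Spry2 (edgeR adjusted p = 0.223), 0.35 for Etv5 (0.419), -0.07 for Dusp6 (0.942) and -0.52 for Etv4 (0.637). Tgfb1, a ligand of the pathway that maintains tendon progenitors, went from 34.7 ± 5.89 CPM to 18.99 ± 3.52 CPM, a 1.83-fold fall (edgeR adjusted p = 0.0231). The other ligands of that pathway did not pass, with log2 fold changes of 0.02 for Tgfb2 and -0.22 for Tgfb3. None of the 19 passed by edgeR with sex as a covariate (4 at an unadjusted p under 0.05).

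Genes of the tendon matrix list were mostly lower. The list was not limited to genes particular to tendon, and it holds genes far more abundant than the members. Col1a2 and Bgn averaged 3323 and 523 CPM in controls, against 37.1 CPM for Mkx, the most abundant member by CPM. Of 25 tested, 6 fell and 2 rose (32% called, against 7.01% of all tested genes). In all 19 had log2 fold changes below 0, and the median was -0.22. Col12a1, a collagen that coats fibrils in tendon, measured 959.9, 932.6 and 931.8 CPM in controls and 624.1, 751.4 and 634.3 CPM in the deletion group (1.41-fold lower, edgeR adjusted p = 0.00363). The proteoglycan genes Fmod, Bgn and Aspn fell 1.38-fold, 1.25-fold and 1.65-fold, and the collagen genes Col1a2 and Col6a1 1.29-fold and 1.14-fold. The genes that rose were Thbs4, a thrombospondin of the muscle-tendon junction, and Comp, the pentameric matrix protein of cartilage and tendon. Thbs4 measured 20.2, 11.3 and 16.4 CPM in controls and 37.3, 39.2 and 33.4 CPM in the deletion group (2.29-fold, edgeR adjusted p = 0.0194). Comp went from 0.740 ± 0.342 to 2.05 ± 0.583 CPM, a 2.75-fold rise (edgeR adjusted p = 0.0344). None of the 25 passed by edgeR with sex as a covariate (9 at an unadjusted p under 0.05, median log2 fold change -0.13), and the 8 calls were 2 when control 213 was left out, 2 when deletion 208 was and 3 when deletion 211 was. Of the 2 genes called higher, 0 remained so without deletion 208 or without deletion 211. Without control 220, 0 matrix genes rose and 9 fell.

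The protein families of the members were also followed. Of 12 small leucine-rich proteoglycan genes related to Kera, 4 fell and 1 rose (41.7% called, against 7.01% of all tested genes). Their median log2 fold change was -0.28, and 8 of the 12 are also in the matrix list. Omd, the bone-associated osteomodulin, fell most clearly, from 20.2 ± 1.54 to 11.6 ± 1.16 CPM (edgeR adjusted p = 0.00163), beside Fmod, Bgn and Aspn, and the riser was Epyc. With sex as a covariate 0 fell and 1 rose by edgeR (5 of the 12 at an unadjusted p under 0.05). Of the 4 relatives of Tnmd with a BRICHOS domain, 2 rose (50% called). Lect1, which encodes chondromodulin of cartilage, rose from 2.79 ± 1.14 to 19.3 ± 3.79 CPM (edgeR adjusted p = 0.00436), while Tnmd itself did not pass, and Itm2a rose 1.27-fold. With sex as a covariate Lect1 alone of these 4 passed. Of 6 tested basic helix-loop-helix relatives of Scx, 1 rose (16.7% called). It was Msc, a factor of head muscle progenitors, which rose 2.03-fold (edgeR adjusted p = 0.0377). That call was lost with sex as a covariate (edgeR adjusted p = 0.311) and with limma voom, where 0 of the list passed. Tcf15, the paraxis gene, was at a log2 fold change of 0.58 without passing (edgeR adjusted p = 0.201). None of 6 Iroquois relatives of Mkx passed by edgeR (3 at an unadjusted p under 0.05), 0 by DESeq2 and 1 by limma voom, the smallest p being those of Irx4 (log2 fold change -2.15, edgeR adjusted p = 0.0536) and Irx5 (-0.27, 0.174).

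**Figure D3:**
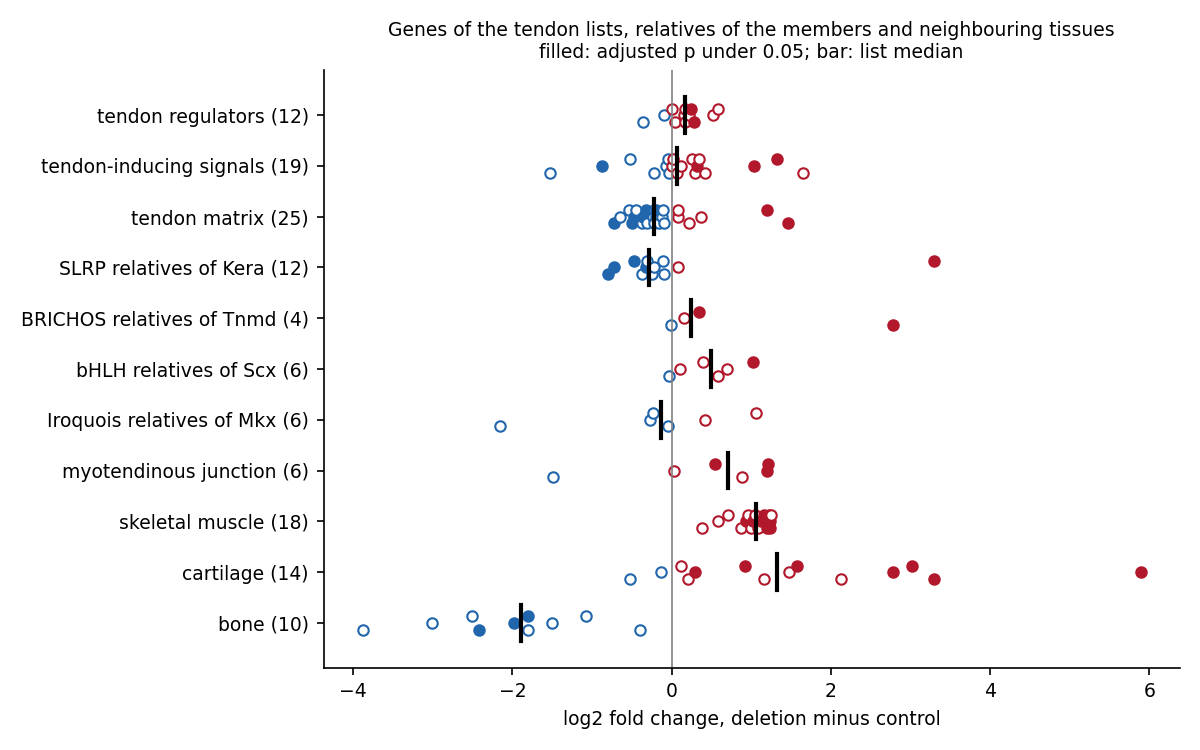
Log2 fold change (deletion minus control) of each tested gene in the tendon lists, the families of the members and the marker lists of adjoining tissues, with the number tested in brackets. Filled points passed at an edgeR adjusted p under 0.05, open points did not, red is above 0 and blue below, and black bars are list medians. Tendon matrix genes centre at -0.22, skeletal muscle markers at 1.06 and bone markers at -1.89.

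Marker lists of skeletal muscle, cartilage and bone also differed between the groups. The 18 skeletal muscle markers in the table, none of them at 0 in all libraries, summed to 585.8 to 633.2 CPM in controls and 999.7 to 1667 CPM in the deletion group. Of the 18 tested, 9 rose and 0 fell (50% called, against 7.01% of all tested genes), with a median log2 fold change of 1.06. Myog, Tmem8c, Tnnc1 and Chrna1 had the smallest p, with log2 fold changes of 1.23, 1.23, 1.22 and 1.22. In the list of the muscle-tendon junction 3 of 6 rose, which were Thbs4, the integrin gene Itga7 (1.46-fold) and Xirp1 (2.32-fold). Col22a1, a collagen found at such junctions, measured 28.9 ± 10.3 CPM in controls and 10.3 ± 2.66 CPM in the deletion group without passing (edgeR adjusted p = 0.084). With sex as a covariate 0 of these 6 passed by edgeR (5 at an unadjusted p under 0.05). The 14 cartilage markers summed to 550.5 to 773.7 CPM in controls and 998.1 to 1153 CPM in the deletion group, and 7 rose and 0 fell, among them Matn1, Epyc, Lect1 and Col2a1 (log2 fold changes 5.89, 3.30, 2.79 and 0.93). The 11 bone markers summed to 1037 to 1464 CPM in controls and 270.9 to 482.7 CPM in the deletion group, and Mmp13, Mepe and Ifitm5 fell of 10 tested. Shares called were 50% in the junction list, 50% for cartilage and 30% for bone, against the same 7.01%. The part of muscle, cartilage or bone in the values of Scx, Kera and the tendon matrix list was not tested.

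Among the deletion libraries, 208 had the highest Scx and cartilage sum, 211 the highest muscle sum and the lowest Kera, and 221 the lowest Scx, muscle sum and cartilage sum. Deletion 208 also had the lowest bone sum (270.9 CPM) and the highest Kera (19.3 CPM) of the deletion libraries. Of other tissues, 1 of 8 Schwann cell and neuron markers rose and 0 fell (12.5% called, against 7.01% of all tested genes). With sex as a covariate 0 of these 8 passed by edgeR (3 at an unadjusted p under 0.05). Krt14, Epcam, Cdh1 and Perp fell of 6 epithelial markers (log2 fold changes -0.83, -0.42, -0.39 and -0.45), a share of 66.7%. Of these Krt14 alone passed with sex as a covariate. None of 7 endothelial and blood markers passed by edgeR (3 at an unadjusted p under 0.05), 1 by DESeq2 and 0 by limma voom, with Kdr and Cdh5 at the smallest p (log2 fold changes -0.23 and -0.13). Of the 11 palate mesenchyme factors Barx1 rose (log2 fold change 0.44), a share of 9.09% against 7.01% of all genes, and its call was lost with sex as a covariate (edgeR adjusted p = 0.102). With sex as a covariate 6 of 18 muscle markers and 6 of 14 cartilage markers rose and 1 of 10 bone markers fell. In that setting 0.669% of all tested genes passed. The medians of these 3 lists were 1.10, 1.82 and -1.77.

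**Figure D4:**
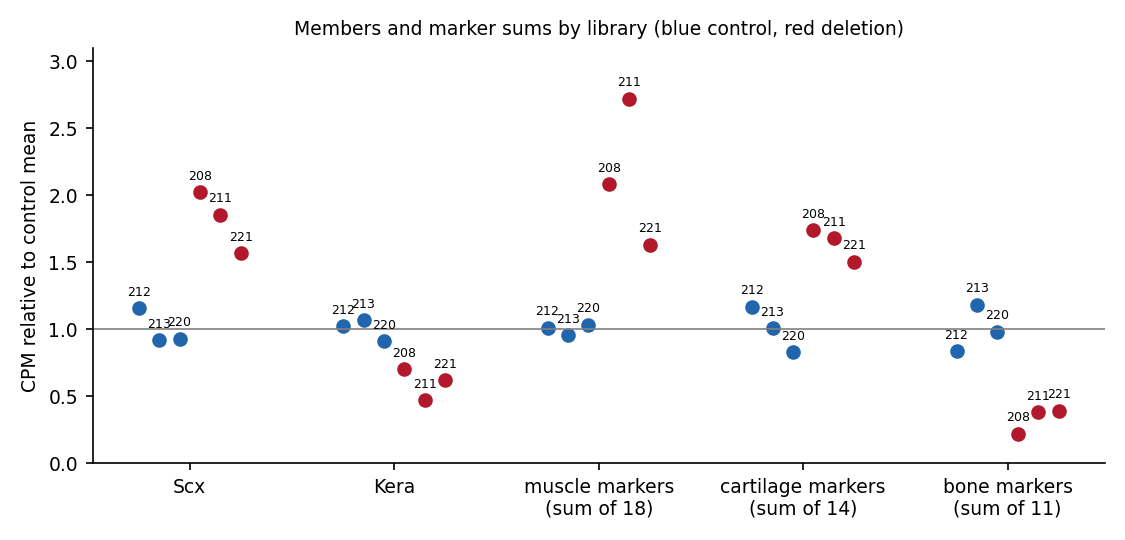
Scx, Kera and the summed CPM of muscle, cartilage and bone markers in each library, each divided by its control mean (line at 1, axis from 0). Points are libraries with their numbers, blue for control and red for deletion. Scx, muscle and cartilage lie above every control in the deletion libraries, and Kera and bone below.

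Across 14 other settings of the analysis, Scx kept a positive and Kera a negative fold change. The log2 fold change of Scx ran from 0.77 to 0.98 and passed in 12 of the 14 settings, and that of Kera from -0.88 to -0.60 and passed in 11. The settings in which neither passed were those that compare the deletion libraries with control 220 alone, where 0.669% (sex as a covariate) and 0.435% (without both male controls) of tested genes passed. Tnmd and Mkx passed in none of the settings.

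**Figure D5:**
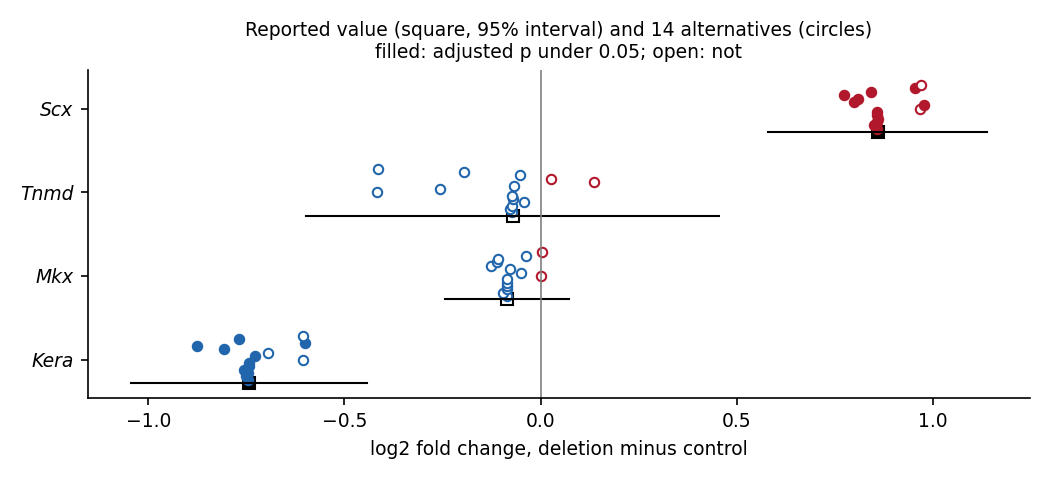
Log2 fold change (deletion minus control) of each member as reported (black square with 95% interval) and in 14 other settings (circles, red above 0 and blue below). Filled symbols passed at an adjusted p under 0.05. Scx lies at 0.77 or higher and Kera at -0.60 or lower throughout, and Tnmd and Mkx cross 0.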

How the data were processed

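Palatal shelves were profiled in 3 control and 3 deletion libraries. The authors deposited 1 table of estimated counts (expected counts) per gene symbol, not normalized, of which 23.0% to 23.8% of values per library are not whole, and all values of the 4 members are whole. STAR 2.4.1d, CASAVA 1.8.2, Partek and mm10 are named, per the submitters' processing notes, and for the counter, annotation and strand setting the entry is: not given in the sources used here. Columns name a group and a number found in no label, so they were assigned to groups only.

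Counts were rounded, filtered with filterByExpr (minimum count 10, minimum total 15), scaled by TMM and tested with edgeR 4.0.16 (glmQLFit with robust=TRUE, glmQLFTest) in R 4.3.3, with Benjamini-Hochberg adjustment over all tested genes and a threshold of 0.05. The test was checked on simulated data. SE was derived from the log2 fold change and its F statistic. Alternatives used DESeq2 1.42.0, limma 3.58.1, other scalings and filters, sex as a covariate and leaving out libraries. The alternative without both male controls was chosen after seeing the data.

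Members, 15 lists and rules were chosen with earlier results of these data known. From each list up to 4 genes of smallest p in each direction, or 2 where none passed, are named, with the 5 genes most like each member and the genes beside it. Col1a2, Col6a1, Tgfb2, Tgfb3, Spry2, Etv4, Etv5, Dusp6, Tcf15, Col22a1, Lum, Dcn, Egr1, Egr2, Mstn, Msx1, Krt5, Hbb-y, Hbb-bs and Hbb-bt were named although this rule does not give them, once values had been seen. Of the 6 within-library ratios, 3 are printed. RefSeq promoter entries matched 2 of 4 members. Some genes that these rules give are not reported here.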

Additional observations from a re-analysis of the deposited data

How the results depend on the processing

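The reported log2 fold changes were 0.86 for Scx, -0.07 for Tnmd, -0.09 for Mkx and -0.74 for Kera. No paired analysis was possible because the count columns carry none of the replicate numbers of the labels. With embryo sex as a covariate, Scx was at 0.97 (edgeR adjusted p = 0.0588), Kera at -0.61 (0.191) and Mkx at 0.00214, with 129 genes called in all, and 0 tendon matrix genes, 0 tendon regulators and 0 tendon-inducing signals. Without both male controls, which leaves 1 control library and takes all spread from the deletion libraries, the values were 0.97 for Scx (edgeR adjusted p = 0.0698), -0.61 for Kera (0.281) and 0.00401 for Mkx, with 89 genes, 1 tendon matrix gene, 0 regulators and 1 signal called. Both settings set the deletion libraries against control 220, so neither is a separate check of the other. The DESeq2 Wald test called 2125 genes, 14 tendon matrix genes and 7 signals, against 1352, 8 and 4, and it called 14 muscle markers, 9 bone markers, 4 Schwann cell and neuron markers and 2 palate factors against 9, 3, 1 and 1 by edgeR.

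With 1 library left out, Scx ranged from 0.77 to 0.98 and passed each time, Kera from -0.88 to -0.60, Mkx from -0.13 to -0.04 and Tnmd from -0.26 to 0.14. Tnmd was above 0 without control 220 (0.14) and without deletion 208 (0.03). Counts ranged from 356 (without control 213) to 1872 genes in all, 2 to 10 tendon matrix genes, 0 to 3 regulators and 0 to 5 signals. They were 545 and 711 genes without deletion 208 and 211. Tnmd rests on 92 to 145 counts a library, which limits its precision. Other scalings, filters and limma voom left each member on its side of the threshold. The causes of these shifts were not tested.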

Other observations

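Control 220 and deletion 221 had the highest Tnmd of their groups (3.19 and 2.79 CPM) and also the lowest Mkx (34.9 and 32.6 CPM). The same libraries had the highest Egr1 and Egr2, early response factors that also act in tendon. Egr1 measured 23.0, 24.7 and 54.3 CPM in controls 212, 213 and 220, and 27.0, 26.9 and 65.2 CPM in deletion 208, 211 and 221. Egr2 measured 1.35, 4.91 and 10.3 CPM in these controls and 2.14, 3.86 and 12.6 CPM in these deletion libraries. Neither Egr1 nor Egr2 passed between the groups (edgeR adjusted p = 0.88 and 0.951). The pattern was not limited to tendon genes. The palate factor Msx1 (178.2 and 188.2 CPM) and the epithelial marker Krt5 (248.5 and 238.5 CPM) were also highest of their groups in control 220 and deletion 221. After each group's mean was taken off, Tnmd had r = -0.90 with Mkx and r = -0.89 with Scx over the 6 libraries. Scx and Mkx had r = 0.84. These are descriptions of 6 points in 2 groups. What sets libraries 220 and 221 apart was not tested.

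Mstn encodes myostatin, a growth inhibitor made by muscle that also acts on tendon cells. It measured 1.87, 4.30 and 3.39 CPM in controls and 10.8, 13.4 and 5.94 CPM in deletion libraries. Every deletion library lay above every control, as for 14.1% of all tested genes. Mstn did not pass (log2 fold change 1.66, edgeR adjusted p = 0.0651). Mstn was singled out after its values were seen.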
